A study of Homo sapiens with 6 samples.

Results

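The 10 genes described here encode enzymes that make, recycle and degrade glutathione, or that supply its cysteine through transsulfuration: GCLC, GCLM, GSS, GSR, CHAC1, CHAC2, CTH, CBS, GGT1 and GGT7. They were chosen by name for their function, with earlier results of these data known. All 10 had a row among the 17187 gene symbols of the deposited table. RNA was measured in HT-1080, an established human fibrosarcoma line described as wild type, in 3 libraries of cells given PBS (control) and 3 of cells treated for 8 h with 10 ng/ml recombinant interferon gamma (IFNg). The study concerns CD8+ T cells and ferroptosis of tumour cells, in which lipid peroxides kill the cell and which glutathione counteracts, and IFNg is a cytokine those T cells release. The cells are 1 tumour line in culture, and the labels do not state separate cultures for libraries 1 to 3, so p-values speak only of the spread between these libraries, possibly a technical one. In such bulk samples, fewer cells with a transcript and less transcript per cell cannot be told apart.

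Glutathione is a tripeptide of glutamate, cysteine and glycine that cells use to reduce peroxides and to neutralise reactive compounds. Its synthesis starts when glutamate-cysteine ligase, a heterodimer of the catalytic subunit GCLC and the modifier subunit GCLM, joins glutamate to cysteine, and glutathione synthetase (GSS) then adds glycine. The cysteine comes from imported cystine or is made from homocysteine by CBS and CTH, while glutathione reductase (GSR) regenerates the reduced form. CHAC1 and CHAC2 degrade glutathione in the cytosol, and gamma-glutamyltransferases such as GGT1 cleave it outside the cell.

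The 6 libraries held 59556948 to 83501954 reads in genes, and values are given as normalised read counts, that is, reads divided by 1 size factor per library. The members were read 97 (GGT1) to 11257 times in a library. In both groups library 3 differed more from libraries 1 and 2 (chi-square per degree of freedom over genes of 57.6 to 115) than these differed from each other (40.8 in control and 15.8 in IFNg). Results are therefore also given without both libraries numbered 3. The mesenchymal genes VIM, FN1 and CD44 were abundant, at 380457 ± 44482, 124567 ± 39318 and 131064 ± 1373 in control (SD, n = 3). Others of this list were lower: ZEB1 10457 ± 3033, COL5A1 824 ± 282, TWIST1 404 ± 64.9 and S100A4 63.6 ± 17.5 in control. THY1 had no row. The epithelial keratins KRT8 and KRT18 were also present (16193 ± 2730 and 10710 ± 1765 in control), and KRT19 and ESRP1 were near 0. CLDN4 stood at 56.3 ± 16.3 in control, and EPCAM and CDH1 had no row. Of the myeloid and B cell list, CSF1R stood at 226 ± 34.6 and LYZ at 131 ± 22.7 in control. PTPRC, CD14 and CD79A were at 6.43, 0 and 2.6 there. T and natural killer cell markers, of which 4 of 8 had a row, summed to 6.43 to 57.6 in control and 14.9 to 30.1 in IFNg, with CD3E and PRF1 at 0 in control. No marker of the 5 cell type lists passed the test. All 9 tested genes of an IFNg response list rose, GBP1 by 5.45 ± 0.12 (SE) on the log2 scale.

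After IFNg, GCLM rose, and CTH and CHAC1 fell. GCLC, GSS, GSR, CHAC2, CBS, GGT1 and GGT7 did not pass the test. Changes were tested with limma on log2(value + 1) over 15546 genes, with Benjamini-Hochberg adjustment over all of them and a threshold of 0.05, and each difference is the IFNg mean less the control mean, given with its fitted standard error. Of all genes tested, 4.32% passed, 3.27% as higher and 1.05% as lower, against 3 of the 10 members (1 higher and 2 lower). The median difference was 0.02 over the members and -0.01 over all genes. IFNg and control libraries did not overlap for 4 members (GCLM, GSR, CHAC1 and CTH), and for 20.0% of all genes. edgeR and DESeq2 on recovered reads, which called 4.19% and 6.79% of genes, called 3 members each, and limma without both libraries numbered 3, which called 9.53%, called 4.

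**Figure D1:**
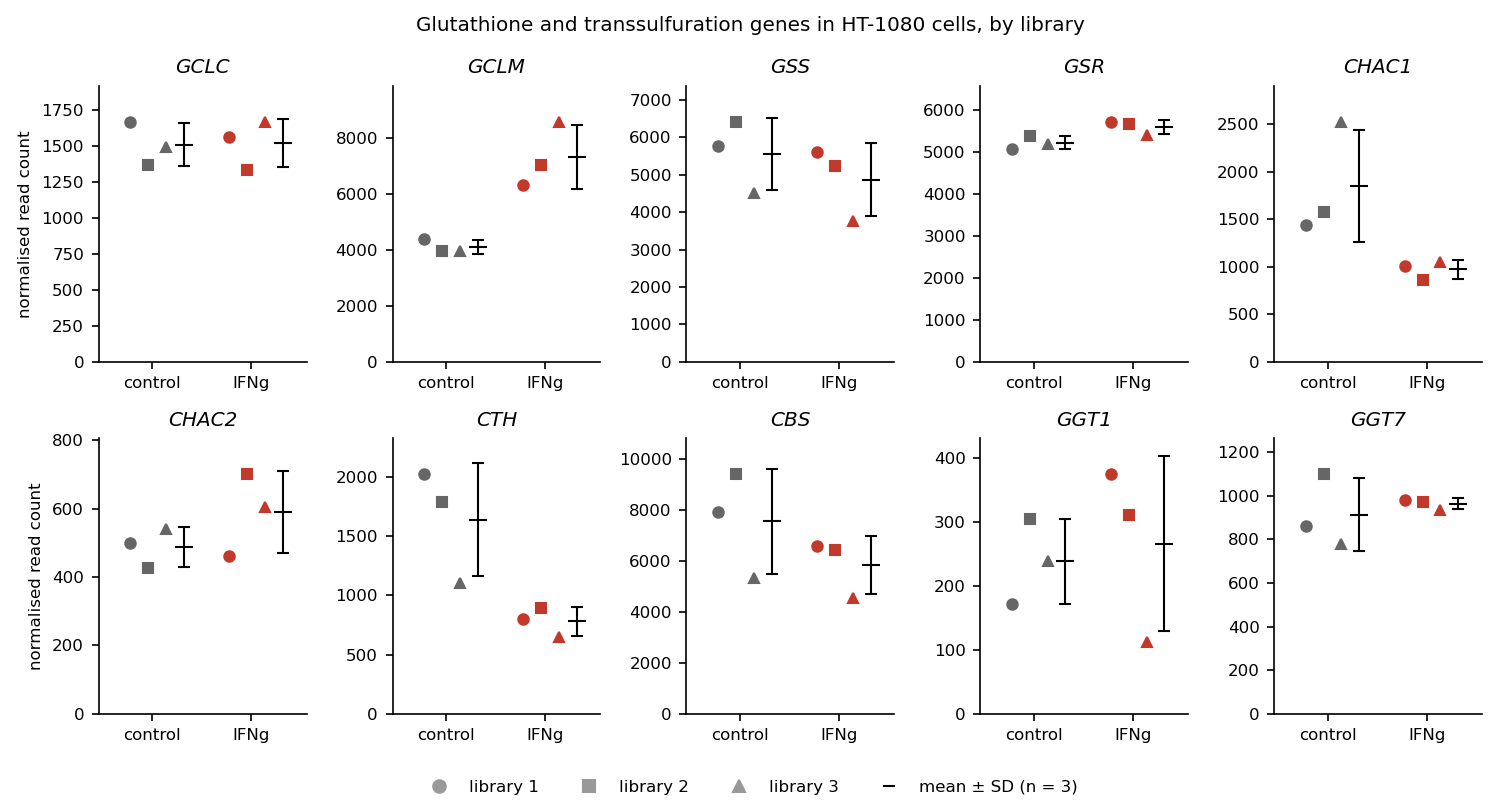
Normalised read count (y axis, linear from 0, with its own scale for each gene) of the 10 genes in 3 control (grey) and 3 IFNg (red) libraries, with the symbol giving the library number and the black bar the mean and SD. All IFNg points of GCLM lie above its control points, and those of CTH and CHAC1 lie below. GSS, CTH, CBS and GGT7 are lowest in library 3 of both groups.

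Of the ligase subunits, GCLM changed and GCLC did not pass. GCLM was read at 4369.6, 3966 and 3946 in control 1, 2 and 3 and at 6331, 7045 and 8568 in IFNg 1, 2 and 3. Every IFNg library lay above every control library, and the IFNg mean was 1.79 times the control mean (4094 ± 239 against 7315 ± 1143, SD, n = 3 each). The log2 difference was 0.83 ± 0.12 (limma adjusted p = 0.0011), with a 95% interval of 1.48 to 2.12 as a fold. The GCLM call held without each single library (adjusted p up to 0.0097) and without both libraries numbered 3 (difference 0.68, adjusted p = 0.000486). It did not hold in limma without a variance trend (adjusted p = 0.0678).

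GCLC, the catalytic subunit, was read at 1667, 1366 and 1491 in control and at 1562, 1336 and 1663 in IFNg. The groups overlapped almost fully, with means of 1508 ± 151 and 1520.4 ± 168. The log2 difference was 0.01 ± 0.14 (limma adjusted p = 0.985). Its 95% interval, 0.812 to 1.25 as a fold, leaves out a rise of the size fitted for GCLM (1.77).

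Both subunits were therefore compared within each library, where the scaling between libraries cancels. The GCLM to GCLC ratio of normalised counts was 2.62, 2.9 and 2.65 in control 1, 2 and 3 and 4.05, 5.27 and 5.15 in IFNg 1, 2 and 3. The ratios of the groups did not overlap. Their log2 difference was 0.82 (exact 2-sided permutation test, p = 0.1, also 0.1 adjusted over the 3 ratios tested, the smallest value that 3 against 3 libraries allow). As counts are not divided by transcript length, the ratio is not a ratio of molecules.

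The sequence upstream of GCLM is shown because it is the member that rose and because it held a match to 1 of the 3 motifs described here. It is the 250 bases before the RefSeq start on the minus strand, GRCh38.p14 chr1:93909431-93909680, 5′ to 3′, with the match in capitals.
GCLM: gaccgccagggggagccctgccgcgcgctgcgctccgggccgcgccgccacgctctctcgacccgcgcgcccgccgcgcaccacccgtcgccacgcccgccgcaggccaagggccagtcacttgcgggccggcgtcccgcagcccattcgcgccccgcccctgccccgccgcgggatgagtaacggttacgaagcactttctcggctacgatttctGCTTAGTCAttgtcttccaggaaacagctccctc
The capitals, 34 to 26 bases before the start, match TGACNNNGC, the antioxidant response element bound by NRF2 with small MAF proteins, on the opposite strand. Both strands of 300 bases (250 before to 50 after the start) were searched. Such a match was found in 13.3% of 35116 windows of this length in the RefSeq table. The GCLC window held no match to any of the 3 motifs, and sequence outside the windows was not searched. A match is a description of the letters and not of binding, which was not measured.

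The enzymes of the next step and of recycling gave smaller differences that did not pass. GSS was read at 5773, 6415 and 4515 in control and at 5609.9, 5228 and 3769 in IFNg, with overlapping groups and library 3 lowest in each. The log2 difference of GSS was -0.20 ± 0.16 (limma adjusted p = 0.633), with a 95% interval of 0.682 to 1.11 as a fold. It was -0.34 without control 3 and -0.025 without IFNg 3, and passed in neither fit. GSR varied little between libraries, with a coefficient of variation of 2.95% in control and 2.91% in IFNg. It was read at 5082, 5388 and 5203 in control and at 5725, 5679 and 5422 in IFNg. The IFNg values of GSR all lay above the control values, by a narrow margin. Its log2 difference was 0.10 ± 0.09 (adjusted p = 0.664), with a 95% interval of 0.937 to 1.23 as a fold.

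CHAC1, the gamma-glutamylcyclotransferase that is induced under amino acid and endoplasmic reticulum stress, fell. It was read at 1442, 1573 and 2522 in control 1, 2 and 3 and at 1004, 859.6 and 1045 in IFNg 1, 2 and 3. The groups did not overlap, and control 3 lay far above the other controls, at 1.67 times their mean. The mean over controls was 1.9 times that over IFNg libraries (log2 difference -0.89 ± 0.20, limma adjusted p = 0.0269). Without control 3 the difference was -0.64 and the call held (adjusted p = 0.0295), as it did without both libraries numbered 3 (-0.70, adjusted p = 0.0148). CHAC1 no longer passed when control 2 (adjusted p = 0.0586), IFNg 1 (0.0907), IFNg 2 (0.113) or IFNg 3 (0.062) was left out, nor in limma without a variance trend (0.219).

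CHAC2, its constitutive paralogue, was read at 498, 425 and 540.2 in control and at 463, 701 and 606 in IFNg. The groups overlapped, with 2 of the 3 IFNg libraries above every control. The log2 difference of CHAC2 was 0.26 ± 0.22 (limma adjusted p = 0.644), and its 95% interval, 0.863 to 1.66 as a fold, does not reach the fold fitted for CHAC1 (0.541). The difference of CHAC2 was 0.42 without IFNg 1 and 0.12 without IFNg 2, and passed in neither fit. CHAC2 overlaps ASB3 on the opposite strand in GENCODE 29, and as the treatment of strand in counting is not given, reads of the pair cannot be told apart.

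Within a library, the CHAC1 to CHAC2 ratio was 2.89, 3.7 and 4.67 in control 1, 2 and 3 and 2.17, 1.23 and 1.72 in IFNg 1, 2 and 3. All IFNg ratios lay below all control ratios. The log2 difference of the ratio was -1.15 (exact 2-sided permutation test, p = 0.1, also 0.1 adjusted over the 3 ratios, the smallest value possible).

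**Figure D2:**
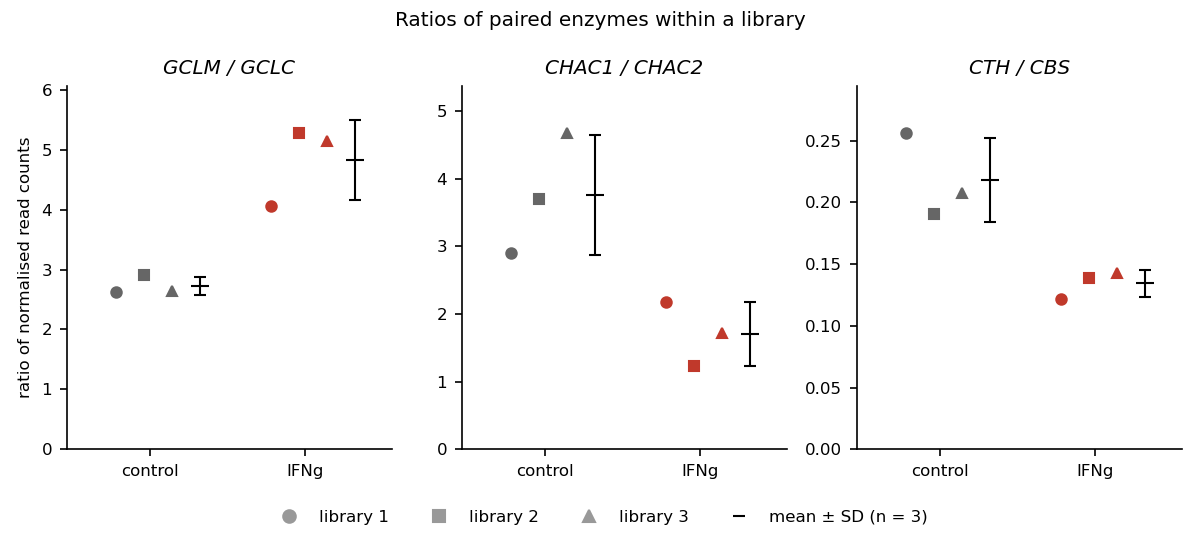
Ratio of the normalised read counts of 2 genes within each library (y axis, linear from 0, a scale for each pair) for GCLM to GCLC, CHAC1 to CHAC2 and CTH to CBS, in 3 control (grey) and 3 IFNg (red) libraries, with the mean and SD in black. For the first ratio the IFNg points (4.05 to 5.27) lie above the control points (2.62 to 2.9), and for the other ratios they lie below.

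The upstream sequence of CHAC1 is shown because it held a match to a motif linked to ATF4, a transcription factor of the amino acid response. It is the 250 bases before the RefSeq start on the plus strand, GRCh38.p14 chr15:40953221-40953470, 5′ to 3′, with the match in capitals.
CHAC1: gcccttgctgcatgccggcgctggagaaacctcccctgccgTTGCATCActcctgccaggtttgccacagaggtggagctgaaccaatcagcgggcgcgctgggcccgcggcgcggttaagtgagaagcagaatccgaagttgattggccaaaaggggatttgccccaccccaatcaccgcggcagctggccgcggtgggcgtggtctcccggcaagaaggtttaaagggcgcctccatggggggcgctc
The capitals, 209 to 202 bases before the start, match TGATGNAA, the core of the composite element of ATF4 with CHOP or C/EBP proteins, on the opposite strand. This motif was found in 3.62% of the 35116 windows, and CHAC1 was the only one of the 8 members with a window in the RefSeq table to hold it. Both windows of CHAC2 held no match to any of the 3 motifs. Whether ATF4 acts on CHAC1 through its match was not tested.

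In transsulfuration, CTH fell and CBS did not pass over all 6 libraries. CTH, which cleaves cystathionine to give cysteine, was read at 2025, 1789.7 and 1104 in control 1, 2 and 3 and at 803, 891 and 648 in IFNg 1, 2 and 3. The groups did not overlap, and library 3 was the lowest of its group in both. On average control stood 2.1 times above IFNg (1639 ± 478 against 780.3 ± 123), a log2 difference of -1.04 ± 0.22 (limma adjusted p = 0.0195). Without both libraries numbered 3 the difference was -1.17 (adjusted p = 0.000259). CTH no longer passed when control 1 (adjusted p = 0.112), control 2 (0.118), IFNg 1 (0.0719) or IFNg 3 (0.0858) was left out, nor in limma without a variance trend (0.198).

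CBS, which joins homocysteine and serine to cystathionine, was read at 7912, 9401 and 5323 in control and at 6598, 6415 and 4547 in IFNg. The groups overlapped because control 3 lay below IFNg 1 and IFNg 2, and library 3 was again the lowest of each group, at 0.615 and 0.699 times the mean of the other libraries. Over all libraries the log2 difference of CBS was -0.35 ± 0.19 (limma adjusted p = 0.451), with a 95% interval of 0.586 to 1.05 as a fold. It passed as lower without control 3 (-0.58, adjusted p = 0.0308) and without both libraries numbered 3 (-0.41, adjusted p = 0.0157). No other single library brought CBS past the threshold when left out.

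The CTH to CBS ratio within a library was 0.256, 0.19 and 0.207 in control 1, 2 and 3 and 0.122, 0.139 and 0.142 in IFNg 1, 2 and 3. The low values of library 3 were common to both genes and did not appear in the ratio, and the groups did not overlap. Its log2 difference was -0.69 (exact 2-sided permutation test, p = 0.1, also 0.1 adjusted over the 3 ratios, the smallest value possible).

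The upstream sequence of CTH is shown beside that of CHAC1, as the other member that fell. It is the 250 bases before the RefSeq start on the plus strand, GRCh38.p14 chr1:70411018-70411267, 5′ to 3′, with no capitals because none of the 3 motifs was found.
CTH: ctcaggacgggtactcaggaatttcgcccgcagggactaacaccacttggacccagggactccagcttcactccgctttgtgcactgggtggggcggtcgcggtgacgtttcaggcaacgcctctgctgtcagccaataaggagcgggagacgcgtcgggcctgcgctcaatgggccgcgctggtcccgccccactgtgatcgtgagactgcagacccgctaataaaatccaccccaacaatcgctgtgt
The remaining motif, GAAANNGAA, a core of the interferon-stimulated response element, was found in 8.11% of all windows and in no window of the 8 members. TGACNNNGC was also found in 1 of 3 CBS windows and in 1 of 2 GGT1 windows.

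The gamma-glutamyltransferase genes did not pass. GGT1, the main cell-surface enzyme of the family, was read at 171, 305 and 238 in control and at 374, 310.0 and 112 in IFNg. The IFNg libraries held both the highest and the lowest value of GGT1, and the log2 difference of 0.02 ± 0.42 (limma adjusted p = 0.989) had a 95% interval of 0.534 to 1.93 as a fold. It was 0.57 without both libraries numbered 3 and -0.31 without IFNg 1, and passed in neither fit. GGT1 has close copies elsewhere in the genome and shares a locus with SNRPD3, so its reads may have been split or shared. GGT7, a family member without an established enzymatic activity on glutathione, was read at 862, 1099 and 779.7 in control and at 982, 972 and 935 in IFNg. The log2 difference of GGT7 was 0.09 ± 0.17 (adjusted p = 0.869), with all IFNg values inside the control range. GGT7 overlaps ACSS2 on the opposite strand.

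**Figure D3:**
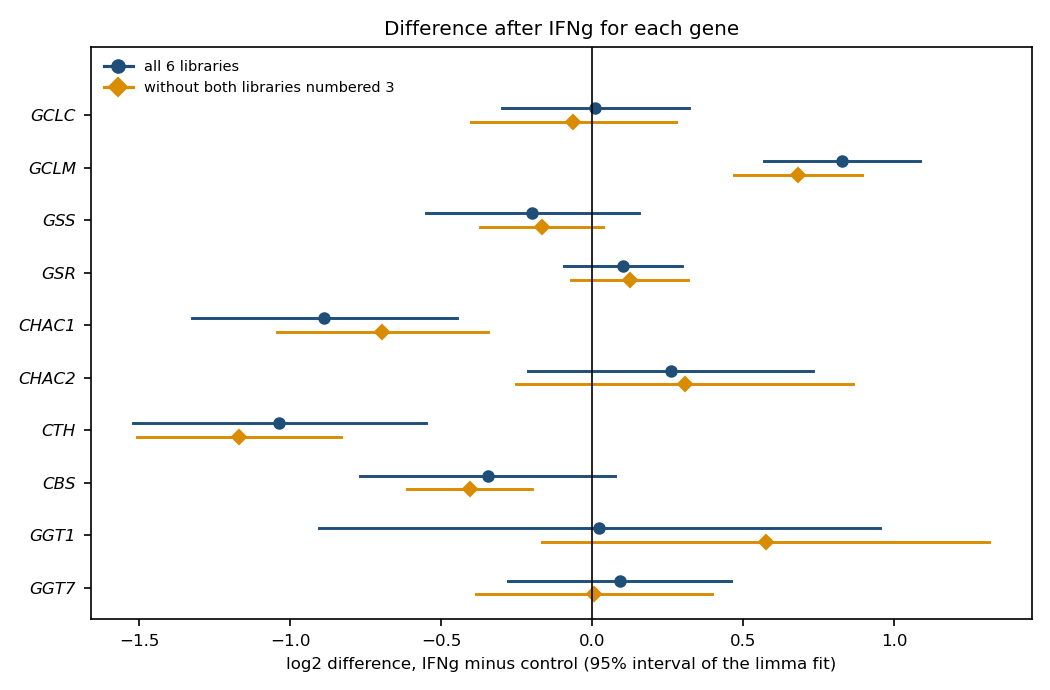
Log2 difference, IFNg minus control (x axis), with its 95% interval for each of the 10 genes, from limma over all 6 libraries (blue circles) and without both libraries numbered 3 (orange diamonds). Intervals of GCLM, CHAC1 and CTH leave out 0 in both fits, that of CBS only without libraries numbered 3, and that of GGT1 is the widest (-0.91 to 0.95 over all libraries).

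Levels of the genes were compared with each other only per kilobase of exon. Exon lengths came from GENCODE 29 on GRCh38, since the annotation used in counting is not given. Each length is the union of a gene's exons over its transcripts, which can exceed the length of any single transcript. In control the order of normalised counts per kilobase was CBS (2735 ± 748, SD, n = 3), GSS (1696 ± 294), GSR (1637 ± 48.2), CHAC1 (897 ± 286), GCLM (835 ± 48.7), CTH (766 ± 224), CHAC2 (369 ± 44.1), GGT7 (346 ± 62.7), GCLC (236 ± 23.7) and GGT1 (73 ± 20.4). Library values of neighbours in this order overlapped except between GSR and CHAC1, between CTH and CHAC2, between GGT7 and GCLC and between GCLC and GGT1. In IFNg, GCLM stood at 1492 ± 233, beside GSR (1757 ± 51.1) and GSS (1483 ± 296), and overlapped both. CHAC1 (471 ± 47.3) and CTH (365 ± 57.5) stood beside CHAC2 (446 ± 90.6) and GGT7 (365 ± 9.44), and these neighbours overlapped. CBS had the highest mean and GGT1 the lowest in both groups.

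Beyond these members, lists of related genes were counted in the same fit. Of 8 tested genes of the gamma-glutamyl cycle and of dipeptide handling, 2 rose and the other 6 did not pass (list median 0.01). These were the peptidases LAP3, a leucine aminopeptidase (1.87 ± 0.10, limma adjusted p = 1.45e-07), and CNDP2, a cytosolic dipeptidase that cleaves cysteinylglycine (0.67 ± 0.09, adjusted p = 0.000468). Of 18 genes of the methionine cycle and sulfur amino acid breakdown, 1 rose, the mitochondrial sulfide oxidase gene SQRDL (1308 ± 179 to 2472 ± 441, adjusted p = 0.00489; list median -0.03). Of 27 glutathione-using enzymes, 1 rose, the glutathione transferase gene GSTK1 (3196 ± 360 to 5812 ± 550.0, adjusted p = 0.000694; list median -0.04). All 4 genes passed without each library in turn. Without both libraries numbered 3, 2 genes of the methionine and sulfur list rose and 1 fell, and 1 also fell without control 3.

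NADPH supply, which GSR draws on, showed no gene past the threshold among 12 tested by limma, edgeR or DESeq2, with 1 at an unadjusted p under 0.05 in limma (list median 0.03). Among 8 genes of glutathione export and mitochondrial import, none passed in any of the 3 tools and 2 had an unadjusted p under 0.05 in limma (list median 0.05). Without both libraries numbered 3, 1 gene of this list rose, and 1 rose without control 3.

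Of 14 genes that supply cystine, cysteine and glutamate, 1 rose and 4 fell (list median -0.09). SLC7A11, the cystine transporter subunit that feeds the ligase, fell by 1.01 ± 0.11 on the log2 scale (limma adjusted p = 0.000127), from 9855 ± 365 to 4914 ± 747. The neutral amino acid transporter gene SLC1A4 fell (-0.90 ± 0.12, adjusted p = 0.000694), and both calls held without each library in turn. SLC3A2, the partner of SLC7A11, fell (-0.45 ± 0.09, adjusted p = 0.00968), but did not pass once control 2, IFNg 1 or IFNg 2 was omitted (highest adjusted p 0.0844). The glutamate transporter gene SLC1A3 rose (0.70 ± 0.15, adjusted p = 0.0203), a call lost without any library but control 3 (up to 0.113). The number that fell was 2 without control 2, IFNg 1 or IFNg 2 and 6 without both libraries numbered 3.

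Among 19 regulators linked to NRF2 and ATF4, 3 rose and 3 fell (list median -0.10). EIF2AK2 (0.97 ± 0.10, limma adjusted p = 9.65e-05), an eIF2alpha kinase activated by double-stranded RNA, and ATF3 (1.52 ± 0.21, adjusted p = 0.000955), a stress-induced factor, rose. BACH1, which represses NRF2 targets, rose (0.73 ± 0.16, adjusted p = 0.0256), but did not pass once control 2, IFNg 1 or IFNg 2 was omitted (highest adjusted p 0.129). TRIB3, a pseudokinase gene that is itself an ATF4 target, fell (-0.62 ± 0.11, adjusted p = 0.00491). The others that fell, just under the threshold, were CEBPG (-0.41 ± 0.10, adjusted p = 0.0446) and ATF4 itself (-0.39 ± 0.10, adjusted p = 0.0481). The number that fell was 2 without control 1 or IFNg 3, 1 without control 2, IFNg 1 or IFNg 2, and 4 without both libraries numbered 3.

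Of 19 NRF2 targets outside glutathione metabolism, 1 rose and 1 fell (list median -0.11). The heme oxygenase gene HMOX1 fell (2185 ± 458 to 1043 ± 112, limma adjusted p = 0.00321), and the carbonyl reductase gene CBR1 rose (0.56 ± 0.12, adjusted p = 0.0185), a call lost without any library but control 3 (up to 0.106). The number of NRF2 targets that fell was 2 without control 3, 2 without both libraries numbered 3 and 3 by DESeq2. ATF4 targets outside glutathione metabolism fell in 6 of 18 genes and the other 12 did not pass (list median -0.32, differences from -1.42 to 0.08). ATF3, which rose, and TRIB3, which fell, were counted with the regulators and not in this list. STC2, a secreted glycoprotein gene (-0.70 ± 0.10, adjusted p = 0.00128), SLC7A5, a transporter subunit gene (-0.61 ± 0.10, adjusted p = 0.00253), JDP2, a leucine zipper factor gene (-1.10 ± 0.18, adjusted p = 0.00343), and GPT2, an alanine aminotransferase gene (-0.55 ± 0.11, adjusted p = 0.0119), fell. GPT2 did not pass once control 2, IFNg 1 or IFNg 2 was omitted (highest adjusted p 0.0723). The number of ATF4 targets that fell was 3 without control 2 or IFNg 1, 9 without both libraries numbered 3 and 1 without a variance trend. Of the list genes named here apart from ATF4 and CEBPG, only LAP3, CNDP2, GSTK1, SLC7A11, SLC1A4, EIF2AK2, ATF3 and GBP1 passed without that trend.

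**Figure D4:**
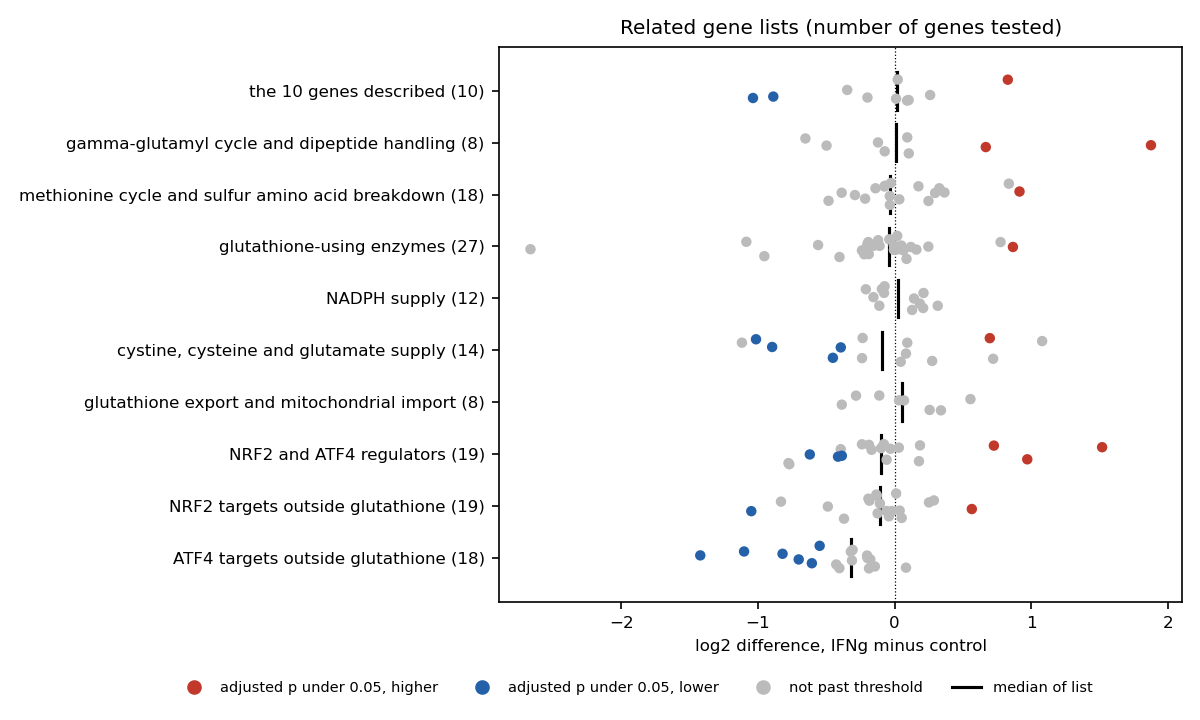
Log2 difference, IFNg minus control (x axis), of each tested gene in the 10 genes described and in 9 related lists (rows, with the number tested), coloured red or blue where limma's adjusted p was under 0.05 and grey otherwise, with a black line at each list's median. The ATF4 target list lies furthest from 0 (median -0.32), with 6 genes called lower, while the other medians lie between -0.11 and 0.05. ATF3 (higher) and TRIB3 (lower) are shown with the regulators.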

How the data were processed

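Stranded paired-end libraries were made from total RNA after removal of ribosomal RNA, per the labels' protocols. Cuffdiff 2.2.1, Cufflinks, TopHat2 2.0.13, FastQC 0.11.3 and hg19/GRCh37 appear, without roles, in the submitters' processing notes. The counter, its strand setting and the scaling were not given in the sources used here. This table is named for RPKM, but the deposited signal is whole reads divided by 1 size factor per library: dividing by the library's smallest step gave whole numbers for 100% of values, to 0.001 reads, and the factors equal recomputed median-of-ratios factors. Values carry no division by length, so long genes collect more reads.

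The members, related lists, ratios and motifs were chosen with earlier results of these data known. Genes at 0.5 or more in at least 3 of 6 libraries were kept (15546, including all 10 members; 1641 removed). The main test was limma 3.58.1 (R 4.3.3) on log2(value + 1) with a variance trend, 2-sided; log2 differences understate changes of low genes. edgeR 4.0.16 and DESeq2 1.42.0 were run on the recovered reads. The fits were tested on simulated data. From each list the text names up to 4 called genes with the smallest adjusted p, and SLC7A11. ATF4 and CEBPG are named in addition. Promoters are RefSeq sequences (GRCh38.p14), matched by symbol for 8 of 10 members. A further motif that was searched is not reported here.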

Additional observations from a re-analysis of the deposited data

How the results depend on the processing

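Over 17 alternatives per member, 147 of 170 values stayed on their side of the threshold with the same sign. Calls over all genes (672; 509 higher, 163 lower) were 320 (279, 41) without a variance trend, 1464 (915, 549) with a replicate block, 1539 (966, 573) with a term for libraries numbered 3 and 1056 (342 lower) by DESeq2. Leaving out 1 library gave 386 (without IFNg 1) to 1302 (without control 3) calls, 330 to 847 higher and 37 (without control 2) to 455 lower; without both libraries numbered 3 there were 1481, 882 and 599. Members called were 1 to 4 when libraries were left out, of which 0 to 3 were lower, and 0 without a variance trend, where GCLM (0.83), CHAC1 (-0.89) and CTH (-1.04) kept their size with a larger error. The cause was not tested. With 1 library left out, differences ran from 0.71 to 0.93 for GCLM, -1.04 to -0.64 for CHAC1, -1.30 to -0.86 for CTH, -0.58 to -0.17 for CBS, -0.34 to -0.025 for GSS, 0.08 to 0.13 for GSR, 0.12 to 0.42 for CHAC2, -0.058 to 0.10 for GCLC, -0.31 to 0.55 for GGT1 and -0.016 to 0.23 for GGT7, so the last 3 changed sign. Without both libraries numbered 3, GCLC was at -0.063 and CBS at -0.41, past the threshold. CBS (-0.35) passed with a replicate block (adjusted p = 0.0138) and with the term for libraries numbered 3 (0.0134). Replicate numbers were not taken as pairing. Deviations of like-numbered libraries from their group means correlated at 0.04, 0.02 and 0.11 over genes, highest for the libraries numbered 3. Those of unlike number correlated at 0.02 and 0.03 between numbers 1 and 2, and at -0.07 to -0.04 between number 3 and the others. The block brought members called from 3 to 4 and left the ratio differences (0.82, -1.15 and -0.69) as they were, with an exact sign-flip p of 0.25, the smallest that 3 pairs allow. The members had 97 (GGT1) to 11257 reads in a library.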
